A study of Homo sapiens with 6 samples.

Results

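The VEGF ligands, their receptors and a set of associated angiogenic factors were examined in 786-O cells after NFE2L3 knockdown. The group held 10 genes chosen by name, VEGFA, VEGFB, VEGFC, PGF, FLT1, KDR, NRP1, NRP2, ANGPTL4 and ADM, out of 56303 genes in the deposited count table. The 786-O line, long established from clear cell renal cell carcinoma (ccRCC), lacks functional VHL, the ubiquitin ligase subunit that marks hypoxia-inducible factors for degradation. RNA-seq was performed on 3 siNFE2L3 libraries, labelled as NFE2L3 knockdown at 48 h, and 3 siControl libraries, labelled as wild type at 0 h. The siRNA and the labelled time therefore cannot be told apart. The genotype label of siNFE2L3 replicates 2 and 3 reads NFE2L4 and NFE2L5, but their titles and source name give NFE2L3. Which of the NFE2L3 siRNAs was transfected was not found in the sources used here. No label states that the libraries came from separate cultures, so the p-values reflect only how far these libraries differed, a spread that may be technical.

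VEGF ligands are secreted dimers that bind tyrosine kinase receptors on endothelial cells. VEGFA and its receptor KDR (VEGFR2) drive most endothelial proliferation and sprouting, while NRP1 and NRP2 are coreceptors that also bind class 3 semaphorins. VEGFA, ANGPTL4 and ADM are known targets of hypoxia-inducible factors, which accumulate when VHL is lost, and this is the textbook basis of the dense vasculature of ccRCC.

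The libraries held 51828446 to 57391929 counted reads each, and 19916 genes passed the filter on low counts and were tested. NFE2L3 (chr7:26152240-26187125, GRCh38) had 1087, 1075 and 1068 reads in the siNFE2L3 libraries, against 6171, 6508 and 6403 reads in the siControl libraries, a log2 fold change of -2.54 (SE 0.0482, adjusted p = 3.98e-22 by the quasi-likelihood test of edgeR with Benjamini-Hochberg adjustment). Of the renal carcinoma line markers, PAX8, a renal lineage transcription factor, averaged 217 ± 8.02 CPM (counts scaled to library size) in siNFE2L3 cells and 241 ± 3.57 CPM in siControl cells (SD, n = 3 each). Of the 6 tested markers on that list 3 were lower and 1 was higher, the list summed to 1787 to 1897 CPM in siNFE2L3 cells and 1943 to 1960 CPM in siControl cells, and their part in the results was not tested. CA9, a hypoxia-inducible carbonic anhydrase that is usually high in ccRCC, had only 0, 6 and 4 reads in siNFE2L3 cells and 0, 1 and 2 reads in siControl cells. The endothelial markers CDH5 and EMCN had no read in any library, and the 10 endothelial markers together summed to 2.10 to 2.49 CPM in siNFE2L3 cells and 1.82 to 2.58 CPM in siControl cells. On that list 4 genes were tested, PECAM1, TEK, ROBO4 and TIE1, with 4 to 64 reads per library. Of these TIE1 was called higher and none was called lower, beside the same shares of all tested genes.

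Promoter sequences are given for 3 members, NRP2 because it had the largest called difference of the group, and ANGPTL4 and ADM because they are hypoxia targets that were not called. The sequences are RefSeq entries on GRCh38.p14, running from 250 bases before to 50 bases after the annotated start, in the direction of transcription. Entries matched 8 of the 10 members by gene symbol, and the set used held none for VEGFA and NRP1. Capitals mark the hypoxia response element core, ACGTG or GCGTG on either strand.
NRP2 promoter, chr2:205682251-205682550, plus strand: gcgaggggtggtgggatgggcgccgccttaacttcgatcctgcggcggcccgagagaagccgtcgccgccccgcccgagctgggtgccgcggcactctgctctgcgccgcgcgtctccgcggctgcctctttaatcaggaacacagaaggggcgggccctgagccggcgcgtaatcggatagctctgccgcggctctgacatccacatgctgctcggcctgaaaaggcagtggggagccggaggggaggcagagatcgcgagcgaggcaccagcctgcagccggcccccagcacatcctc
ANGPTL4 promoter, chr19:8363905-8364204, plus strand: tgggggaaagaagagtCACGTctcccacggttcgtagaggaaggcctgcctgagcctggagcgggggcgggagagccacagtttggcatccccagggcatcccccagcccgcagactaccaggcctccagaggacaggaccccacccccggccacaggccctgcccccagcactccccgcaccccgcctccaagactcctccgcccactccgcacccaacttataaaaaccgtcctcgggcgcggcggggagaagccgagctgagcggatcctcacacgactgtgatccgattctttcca
ADM promoter, chr11:10304823-10305122, plus strand: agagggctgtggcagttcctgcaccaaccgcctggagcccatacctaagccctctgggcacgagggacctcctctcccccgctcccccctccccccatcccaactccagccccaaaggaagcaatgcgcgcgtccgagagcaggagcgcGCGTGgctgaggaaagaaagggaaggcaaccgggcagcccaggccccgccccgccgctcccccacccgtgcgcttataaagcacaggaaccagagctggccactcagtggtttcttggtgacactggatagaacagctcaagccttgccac
The ANGPTL4 window held ACGTG on the strand opposite to the printed one, read here as CACGT, at bases 17 to 21 of the window. The ADM window held GCGTG at bases 150 to 154. The NRP2 window held neither form of the core and no match to the antioxidant response element core TGACNNNGC. That is the kind of element bound by NRF proteins such as NFE2L3 with small MAF partners. The paper reports another common sequence, GTCACWCT, for NFE2L3 binding at LASP1, and it was not searched for here. Each of these windows held at most 1 match, so no matches overlapped. Among 35116 promoter windows of the same length, 48.4% held at least 1 of the hypoxia core forms and 13.3% held the antioxidant core, so a match describes the letters only. Of the members whose sequence is not printed, VEGFB, VEGFC, PGF and FLT1 also held a hypoxia core form, and KDR held none. The second of the 2 PGF windows also held the antioxidant core, the only such match among the members with an entry.

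In siNFE2L3 cells the estimated level of every member but KDR and FLT1 was within 1.2-fold of siControl. KDR and FLT1 had too few reads to say. The 95% intervals reached beyond 1.2-fold for NRP2 (log2 fold change up to 0.29) and VEGFC (down to -0.29). VEGFA and the coreceptor NRP2 rose, and the coreceptor NRP1 fell. The other 6 tested members did not pass the test. Of the 9 members tested, 2 were higher and 1 was lower at an adjusted p under 0.05, where 12.7% of all tested genes were higher and 14% were lower, so the members' counts are close to those background shares. None combined an unadjusted p under 0.05 and a 2-fold difference, the cutoffs of the study, which 1.1% of all tested genes passed. The median log2 fold change of the tested members was -0.08, beside a median near 0 (-0.000656) over all tested genes, and the median absolute change was 0.14 in the members and 0.16 in all tested genes.

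The levels of the members differed widely. On the RPKM scale (reads per kilobase of exon, relative to library size), the order was the same in both groups, with VEGFA at the top, followed by ADM, NRP2, VEGFB, ANGPTL4, NRP1, VEGFC, PGF, KDR and FLT1. VEGFB and ANGPTL4 were the only neighbours whose ranges overlapped in either group, while KDR and FLT1 at the bottom rest on at most 20 reads per library. The exon length used is the union of all annotated exons, so the RPKM level of a gene whose main transcript is shorter than that union is understated.

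**Figure D1:**
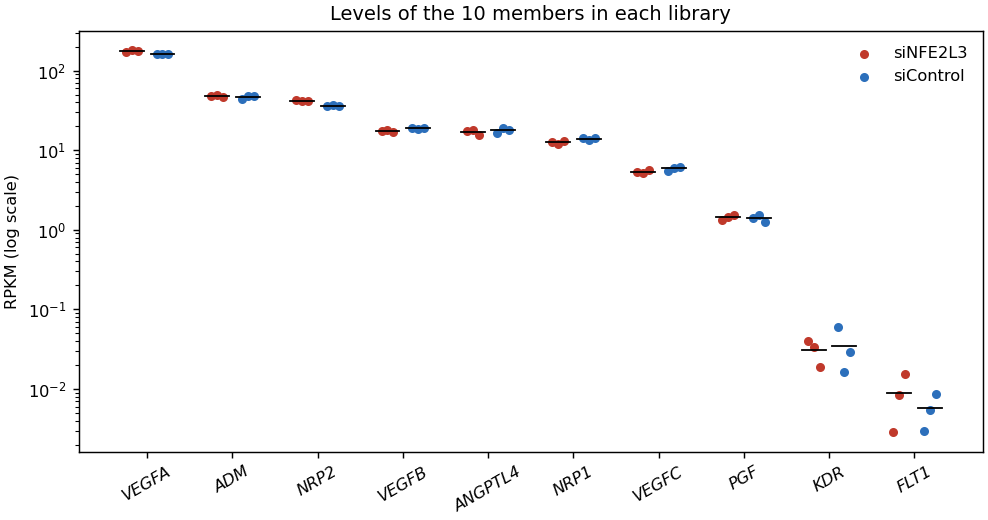
RPKM (log scale) of the 10 members in each library, siNFE2L3 in red and siControl in blue, with 1 point per library and a bar at the mean of 3. VEGFA stood highest at 176 and 160 RPKM on average in siNFE2L3 and siControl cells, and the groups lay close together for every member with more than 20 reads per library.

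Among the ligands, VEGFA was the most abundant. VEGFA (chr6:43770184-43786487) had 139578, 145627 and 130034 reads in the siNFE2L3 libraries, against 122343, 134271 and 128048 reads in the siControl libraries. Scaled to library size these were 2498, 2591 and 2531 CPM in siNFE2L3 cells and 2306, 2322 and 2306 CPM in siControl cells. Every siNFE2L3 library was above every siControl library, and the siControl libraries were nearly equal. The mean was 2540.0 ± 47.3 CPM in siNFE2L3 cells and 2312 ± 9.12 CPM in siControl cells (SD, n = 3 each), or 109.9% of the siControl level. The log2 fold change was 0.14 (SE 0.0355, 95% interval 0.06 to 0.21, adjusted p = 0.00525). In these bulk libraries, more transcript per cell and more cells expressing it cannot be told apart. VEGFA took 0.251%, 0.256% and 0.251% of all reads in the siNFE2L3 libraries and 0.231%, 0.234% and 0.231% in the siControl libraries, and ranked between 22 and 29 among the tested genes by CPM. By RPKM, which accounts for exon length, it ranked between 220 and 249.

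VEGFB, a ligand of VEGFR1 (FLT1) linked to fatty acid handling and cell survival more than to sprouting, did not pass the test. VEGFB (chr11:64234538-64238793) stood at 27.3, 28.1 and 26.1 CPM in siNFE2L3 cells and at 29.7, 28.6 and 29.4 CPM in siControl cells. The groups did not overlap, and the log2 fold change was -0.11 (SE 0.0533, 95% interval -0.22 to 0.0016, adjusted p = 0.142). Groups without overlap were found for 4 of the 9 tested members, VEGFA, VEGFB, NRP1 and NRP2, and for 39.5% of all tested genes.

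VEGFC, the lymphangiogenic ligand of FLT4 (VEGFR3), and PGF, the placental ligand of FLT1, also did not pass. VEGFC (chr4:176683538-176792727) had 12.9, 12.4 and 13.7 CPM in siNFE2L3 cells and 13.4, 14.6 and 15.0 CPM in siControl cells. The third siNFE2L3 library lay above the lowest siControl library, and the log2 fold change was -0.15 (SE 0.0705, 95% interval -0.29 to 0.000366, adjusted p = 0.137). PGF (chr14:74941834-74955784) had 8.00, 8.63 and 9.05 CPM in siNFE2L3 cells and 8.33, 9.18 and 7.49 CPM in siControl cells, with the groups mixed. Its log2 fold change was 0.04 (SE 0.0891, 95% interval -0.15 to 0.22, adjusted p = 0.813).

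As a share of the summed RPKM of the 4 ligands, VEGFA made up 87.7%, 87.9% and 87.9% in siNFE2L3 cells and 85.9%, 86.0% and 85.8% in siControl cells. These shares did not overlap. The log2 ratio of VEGFA to VEGFB counts averaged 6.55 in siNFE2L3 cells and 6.30 in siControl cells, a difference of 0.25, and the log2 ratio of VEGFA to VEGFC averaged 7.61 in siNFE2L3 cells and 7.33 in siControl cells, a difference of 0.28. Both gave p = 0.1 in a two-sided exact permutation test, the smallest value that 3 libraries against 3 allow, and 0.14 after Benjamini-Hochberg adjustment over the 7 ratios compared.

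The tyrosine kinase receptors were close to undetected in these cells. KDR (chr4:55078477-55125589), the main signalling receptor of VEGFA, had 14, 12 and 6 reads in the siNFE2L3 libraries and 20, 6 and 10 reads in the siControl libraries. FLT1 (chr13:28300344-28495128), a high-affinity receptor that often acts as a decoy, had 2, 6 and 10 reads in siNFE2L3 cells and 2, 4 and 6 reads in siControl cells and was removed by the filter. The groups overlapped for both receptors. For KDR the log2 fold change was -0.16 with a 95% interval of -1.2 to 0.88 (adjusted p = 0.862), so a change was not detectable at this depth. For reads counted singly, a count of 0 in 1 library allows up to 3 reads, or 0.0519 to 0.0584 CPM, and this limit covers counting error only. Where both mates of a pair are counted, as the mostly even low counts here look, the limit is too low. FLT4 had no read in any library, and VEGFD, its other ligand, had 2, 4 and 0 reads in siNFE2L3 cells and 0, 0 and 3 reads in siControl cells.

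Unlike the kinase receptors, both neuropilin coreceptors were well expressed, and they differed in opposite directions. NRP2 (chr2:205681990-205798133), which partners VEGFC and VEGFA signalling, had 33490, 32072 and 30049 reads in the siNFE2L3 libraries and 26564, 29470 and 27854 reads in the siControl libraries. This corresponded to 599, 571 and 585 CPM in siNFE2L3 cells and 501, 509.7 and 502 CPM in siControl cells. All siNFE2L3 libraries were above all siControl libraries. The mean was 116.1% of the siControl level, with a log2 fold change of 0.21 (SE 0.0373, 95% interval 0.14 to 0.29, adjusted p = 9.53e-05).

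NRP1 (chr10:33177492-33336262), the coreceptor of VEGFA and of SEMA3A, had 8193, 7858 and 7796 reads in the siNFE2L3 libraries and 8749, 8934 and 8995 reads in the siControl libraries. Its levels were 147, 139.8 and 152 CPM in siNFE2L3 cells and 165, 155 and 162 CPM in siControl cells. The highest siNFE2L3 library was just below the lowest siControl library. The mean was 91.0% of the siControl level, with a log2 fold change of -0.14 (SE 0.0422, 95% interval -0.22 to -0.05, adjusted p = 0.0178). Without siNFE2L3 replicate 2, the lowest library, the log2 fold change of NRP1 was -0.11 and the adjusted p was 0.125, so the call on NRP1 rests on that library and no member was then called lower.

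The log2 ratio of NRP1 to NRP2 counts was -2.03, -2.03 and -1.95 in siNFE2L3 cells and -1.60, -1.72 and -1.63 in siControl cells. The ratio does not depend on the scaling of the libraries. It averaged -2.00 ± 0.0483 in siNFE2L3 cells and -1.65 ± 0.0625 in siControl cells (SD, n = 3 each), and the difference of -0.35 gave p = 0.1 in the exact permutation test, again the smallest possible value, and 0.14 after adjustment over the 7 ratios. The log2 ratio of VEGFA to NRP1 averaged 4.12 in siNFE2L3 cells and 3.85 in siControl cells, with the same exact permutation p = 0.1. The log2 ratio of VEGFA to ANGPTL4 averaged 5.92 in siNFE2L3 cells and 5.70 in siControl cells (exact permutation p = 0.1), and that of VEGFA to ADM 4.30 in siNFE2L3 cells and 4.20 in siControl cells (exact permutation p = 0.2, adjusted 0.233). For VEGFA to PGF the difference was 0.09 (exact permutation p = 0.4), and it was 0.026 without siControl replicate 2, 0.059 without siNFE2L3 replicate 1 and 0.17 without siControl replicate 3.

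**Figure D2:**
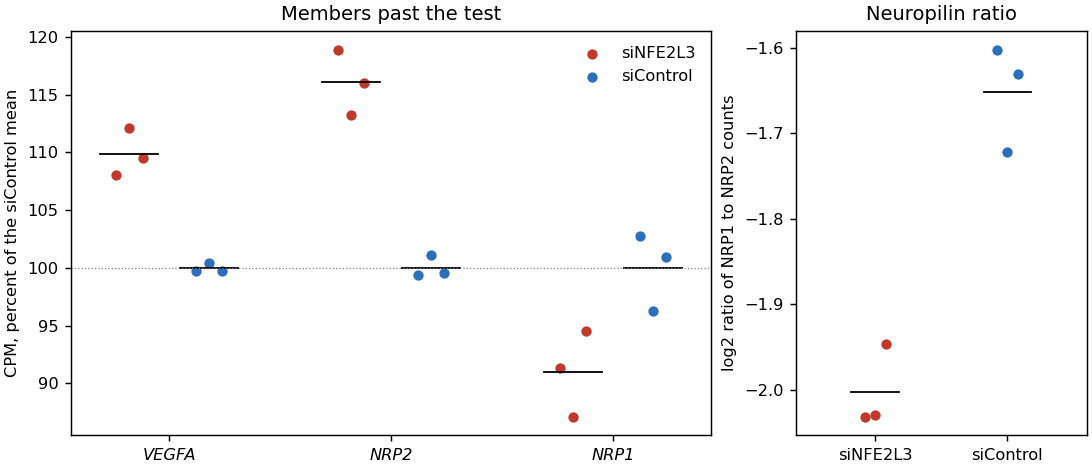
Left, CPM of VEGFA, NRP2 and NRP1 in each library as percent of the siControl mean, siNFE2L3 in red left of siControl in blue, with bars at the mean of 3 libraries and an axis that does not start at 0. Right, log2 ratio of NRP1 to NRP2 counts per library. The siNFE2L3 means were 109.9%, 116.1% and 91.0% of siControl, and the neuropilin ratio was lower in all 3 siNFE2L3 libraries.

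The 3 called members share exon sequence with genes annotated on the opposite strand, and no source used here gives the strand setting of the counting, although the library kit was stranded. Within VEGFA, all 188 exon bases of RP1-261G23.7 lie on VEGFA exons, and its counts were 29% to 29.6% of those of VEGFA in every library. RP11-342D11.2 shares 561 exon bases with NRP1 and held 19.9% to 21.9% of its count, and AC007362.3 shares 147 exon bases with NRP2 and held 19.2% to 21.7% of its count. The log2 fold change was 0.13 for RP1-261G23.7 (adjusted p = 0.0069) and 0.29 for AC007362.3 (adjusted p = 4.42e-05), and both were higher like their hosts. RP11-342D11.2 was at -0.15 and did not pass (adjusted p = 0.0615), and its groups overlapped. With the partner counts subtracted from the hosts, an alternative chosen after seeing the data, the log2 fold change was 0.14 for VEGFA (adjusted p = 0.00561), -0.13 for NRP1 (adjusted p = 0.0195) and 0.20 for NRP2 (adjusted p = 2.73e-04). The share of RP1-261G23.7 was nearly constant, so its subtraction could hardly move the VEGFA value. Of the 1623 exon bases of AC007362.3 only 147 are shared, so its subtraction also took out counts from outside the overlap. The subtraction therefore cannot decide how far the overlaps bear on the 3 calls. ANGPTL4 shares 1 exon base with RAB11B-AS1.

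The 2 secreted factors outside the VEGF family did not pass the test. ANGPTL4 (chr19:8363289-8374373), an inhibitor of lipoprotein lipase that also acts on endothelial junctions, had 43.1, 44.6 and 38.8 CPM in siNFE2L3 cells and 41.2, 47.6 and 44.8 CPM in siControl cells. The groups overlapped, with a log2 fold change of -0.08 (SE 0.0574, 95% interval -0.20 to 0.04, adjusted p = 0.344). ADM (chr11:10304680-10307397), the vasodilator peptide adrenomedullin, had 130.1, 133 and 125 CPM in siNFE2L3 cells and 118, 130.1 and 131 CPM in siControl cells. Its log2 fold change was 0.03 (SE 0.0444, 95% interval -0.06 to 0.12, adjusted p = 0.648). Both intervals include 0. Single libraries moved both values, and the log2 fold change of ANGPTL4 was -0.023 without siNFE2L3 replicate 3, -0.031 without siControl replicate 2, -0.12 without siNFE2L3 replicate 2 and -0.13 without siControl replicate 1, with adjusted p from 0.082 to 0.848 over these. That of ADM was -0.013 without siControl replicate 1 and at most 0.057.

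**Figure D3:**
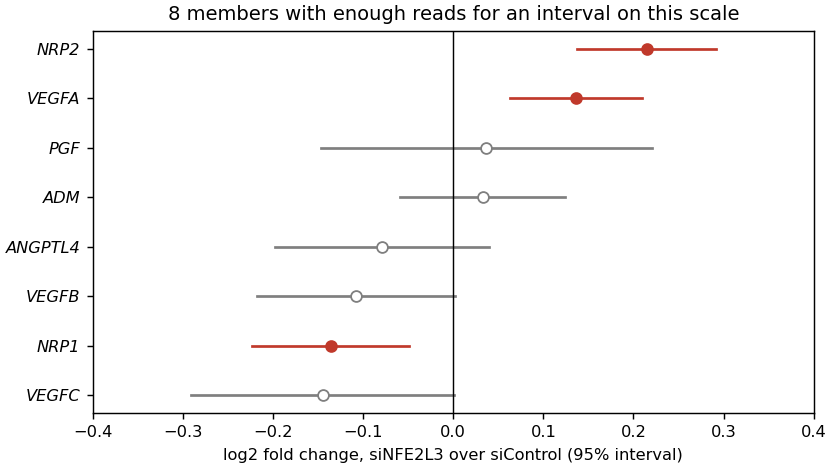
log2 fold change (siNFE2L3 over siControl) with its 95% interval for the 8 members with enough reads for this scale, with filled red points for adjusted p under 0.05. NRP2 and VEGFA lie above 0 and NRP1 below it, while the intervals of VEGFC, VEGFB, ANGPTL4, ADM and PGF include 0, and KDR is not drawn because its interval runs from -1.2 to 0.88.

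The partners of ADM and ANGPTL4 were sparse. The adrenomedullin receptor gene CALCRL had 2, 4 and 0 reads in siNFE2L3 cells and 4, 0 and 2 reads in siControl cells, and its accessory proteins RAMP2 and RAMP3 had no read in any library. The only tested gene of the 4 on that list, ACKR3, an atypical scavenging receptor, had a log2 fold change of 0.17 (adjusted p = 0.429). LPL, the lipase that ANGPTL4 inhibits, had 4, 2 and 4 reads in siNFE2L3 cells and 10, 6 and 8 reads in siControl cells and was not tested, and none of the 3 tested ANGPTL and lipase genes passed.

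Other genes of the VEGF pathway were measured beside the members. For every list the counts stand against all tested genes, of which 14% were lower and 12.7% higher, without matching for read level. Of 13 such genes, 11 were tested, 5 fell and 2 rose, with a median log2 fold change of -0.09. The phosphatase PTPN12 averaged 252 ± 1.42 CPM in siNFE2L3 cells and 300.1 ± 10.6 CPM in siControl cells (SD, n = 3 each; log2 fold change -0.25, adjusted p = 2.58e-05). PLCG1, the phospholipase that couples KDR to calcium and protein kinase C signalling, rose to 103 ± 2.57 CPM in siNFE2L3 cells, against 87.4 ± 1.89 CPM in siControl cells (log2 fold change 0.24, adjusted p = 9.88e-05). PTPN1, a phosphatase that acts on KDR, and the adaptor SHB fell by 0.16 and 0.13 on the log2 scale (adjusted p = 0.00552 and 0.018). SHB shares 1388 of its 2783 exon bases with RP11-613M10.9 on the same strand, so its value is uncertain. The remaining calls were SH2D2A and ADAMTS3, which fell, and NCK1, which rose. The calls on SHB, SH2D2A, ADAMTS3 and NCK1 were each lost without at least 1 of the 6 libraries.

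Of the class 3 semaphorins and plexins, the other ligands and signalling partners of the neuropilins, 10 of 12 genes were tested, 4 fell and 1 rose, with a median of -0.10. SEMA3C averaged 115 ± 6.54 CPM in siNFE2L3 cells and 151 ± 1.21 CPM in siControl cells (SD, n = 3 each; log2 fold change -0.39, adjusted p = 1.84e-07). SEMA3A, the repulsive ligand of NRP1, had 415, 541 and 489 reads in siNFE2L3 cells and 627, 638 and 617 reads in siControl cells (log2 fold change -0.35, adjusted p = 0.00386). The plexins split, with PLXNA2 at a log2 fold change of -0.39 and PLXNA3 at 0.37 (adjusted p = 0.00525 and 9.15e-06). SEMA3F, a ligand of NRP2, also fell.

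Among 18 further angiogenic ligands, 15 were tested, 6 fell and 3 rose, with a median of -0.15. FGF2, a growth factor for endothelial cells, fell to 23.8 ± 0.264 CPM in siNFE2L3 cells, against 31.7 ± 1.28 CPM in siControl cells (SD, n = 3 each; log2 fold change -0.41, adjusted p = 1.94e-06). CXCL8, the chemokine interleukin-8, averaged 420.4 ± 2.37 CPM in siNFE2L3 cells and 546 ± 54.9 CPM in siControl cells (log2 fold change -0.38, adjusted p = 2.29e-06). The Notch ligand JAG1 and the pericyte-recruiting factor PDGFB fell by 0.30 and 0.29 on the log2 scale (adjusted p = 3.42e-06 and 6.47e-04). The 3 that rose were APLN, DLL4 and ANG. Each of these 3 calls was lost without at least 1 of the 6 libraries. ANG shares 675 of its 1430 exon bases with RNASE4, and DLL4 had 16, 22 and 12 reads in siNFE2L3 cells and 4, 6 and 8 reads in siControl cells.

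Of 12 angiogenesis inhibitors, 11 were tested, 1 fell and 5 rose, with a median of 0.22. That median was the value of COL4A3, which had 13 to 21 reads per library and did not pass (adjusted p = 0.749). The list summed to 790.5 to 819.5 CPM in siNFE2L3 cells and 771.2 to 797.4 CPM in siControl cells, so the sums overlapped. Thrombospondin 1 (THBS1) fell to 154 ± 1.80 CPM in siNFE2L3 cells, against 187 ± 9.37 CPM in siControl cells (SD, n = 3 each; log2 fold change -0.28, adjusted p = 1.43e-05). VASH1, which encodes vasohibin 1, had 283, 264 and 251 reads in siNFE2L3 cells and 194, 193 and 192 reads in siControl cells, a log2 fold change of 0.49 (adjusted p = 0.00143). The matricellular protein gene SPARC and ISM1 had log2 fold changes of 0.17 and 0.24 (adjusted p = 0.00158 and 0.0052). TIMP3 and ADAMTS1 also rose. The calls on ISM1, TIMP3 and ADAMTS1 were lost without at least 1 of the 6 libraries, for ISM1 without siNFE2L3 replicate 3 (adjusted p = 0.0609).

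The angiopoietin and Tie genes were at the limit of detection in these cells. Of 5 genes 3 were tested, none was called lower and 1 was called higher, with a median log2 fold change of -0.65. The endothelial receptor gene TIE1 was the one called, with 63, 36 and 28 reads in siNFE2L3 cells and 28, 26 and 15 reads in siControl cells (log2 fold change 0.89, adjusted p = 0.0496). Without siNFE2L3 replicate 1, its highest library, the log2 fold change of TIE1 was 0.51 and the adjusted p 0.379, and the call was also lost without siNFE2L3 replicate 2, siControl replicate 2 or siControl replicate 3 (adjusted p = 0.0536, 0.0742 and 0.199). The other tested genes, TEK and ANGPT4, had log2 fold changes of -0.90 and -0.65 and did not pass (adjusted p = 0.131 and 0.138).

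All 8 HIF and oxygen sensing genes were tested, 3 fell and 1 rose, with a median of -0.03. EPAS1, which encodes the HIF subunit HIF-2α, averaged 241 ± 5.22 CPM in siNFE2L3 cells and 220.3 ± 5.12 CPM in siControl cells (SD, n = 3 each; log2 fold change 0.13, adjusted p = 0.0155). Whether EPAS1 bears on the level of VEGFA was not tested. HIF1A fell by 0.11 (adjusted p = 0.036), and VHL, mutated in this line but still transcribed, fell by 0.14 on the log2 scale (adjusted p = 0.0188). EGLN1, the main oxygen-sensing prolyl hydroxylase, had a log2 fold change of -0.24 (adjusted p = 1.77e-04). The calls on HIF1A, VHL and EPAS1 were each lost when single libraries were left out, with adjusted p of up to 0.124 for HIF1A, 0.0886 for VHL and 0.0846 for EPAS1. HIF1A shares exon bases with HIF1A-AS1 and RP11-618G20.1.

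Across the 8 lists, 62 genes were tested, 19 (30.6%) fell and 13 (21%) rose, with a median log2 fold change of -0.05, where 14% of all tested genes were lower and 12.7% higher. The lists were chosen with earlier results of these data known. The shares were not matched for read level, and genes with more reads can pass at smaller changes. They therefore do not show that the lists responded more than other genes. With each library left out in turn, 13 of the 19 stayed lower in every case, among them SEMA3C, SEMA3A, PLXNA2, SEMA3F, FGF2, CXCL8, JAG1, PDGFB, THBS1, PTPN12, PTPN1 and EGLN1, and 4 of the 13 stayed higher, PLCG1, PLXNA3, VASH1 and SPARC. Over all tested genes, these fits called 2210 to 2892 lower and 1966 to 2620 higher, against 2783 and 2537 with all libraries. How many of those genes kept their call in every fit was not counted. The count of list genes that rose was below 13 whichever library was left out. It was 6, 8 and 7 without siNFE2L3 replicates 1, 2 and 3. Without siControl replicates 1, 2 and 3 it was 10, 9 and 7. Several named list genes share exon bases with genes on the opposite strand that hold reads of their own. SEMA3F shares 110 exon bases with SEMA3F-AS1, whose mean count of 1723 exceeded that of SEMA3F. PLCG1 shares 145 exon bases with PLCG1-AS1 and 268 with ZHX3, and FGF2 shares 804 with NUDT6. PTPN1, THBS1, SPARC, JAG1, VASH1, PLXNA3, ADAMTS3 and HIF1A have such partners too, and with the strand setting unknown the reads cannot be told apart. Each list is described by its counts and median only.

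**Figure D4:**
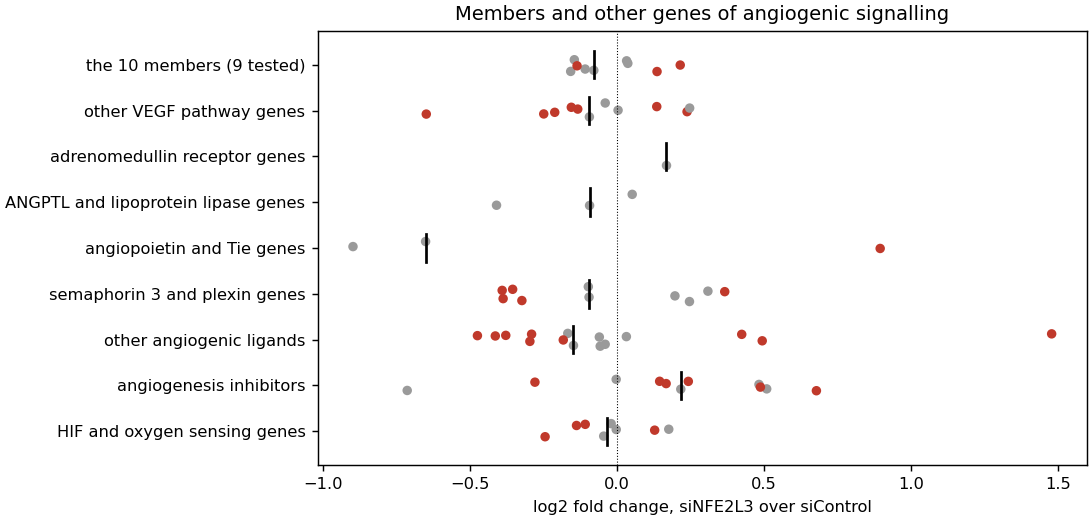
log2 fold change (siNFE2L3 over siControl) of the tested members and of the tested genes of 8 related lists, 1 point per gene, red for adjusted p under 0.05 and grey otherwise, with a bar at the median of each list. The medians ran from -0.65 for the 3 tested angiopoietin and Tie genes to 0.22 for the 11 tested angiogenesis inhibitors, and the median of the members was -0.08. At both ends the median was the value of a gene with at most 41 reads in any library.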

How the data were processed

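Stranded libraries with molecular identifiers were sequenced from 3 siNFE2L3 and 3 siControl samples. According to the submitters' processing notes and the study's methods, the authors used Trimmomatic 0.36 for trimming, merged reads that shared an identifier, aligned the result with STAR 2.5.3a and assigned it to exons with featureCounts (Subread 1.5.1). The deposited values are raw counts per gene and library on GRCh38, with exon lengths. Even numbers made up 67.6% to 69.9% of the counts above 0 and under 30, as when both mates are counted, so halved counts were tried. Such paired counts make intervals on few reads too narrow. No source used here gives the strand setting.

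Counts were filtered with filterByExpr (minimum count 10), scaled by TMM and fitted in edgeR 4.0.16 (R 4.3.3) for its quasi-likelihood test, without a replicate block, and p-values were adjusted by Benjamini-Hochberg over 19916 genes. Standard errors are the log2 fold change divided by the root of F. Log2 ratios used counts plus 0.5 and an exact permutation test. Alternatives were other scalings (RLE, upper quartile, none), DESeq2 1.42.0, limma-voom (limma 3.58.1), the exact test of edgeR, other filters, halved counts, a replicate block and each library left out. The procedure was tested on simulated data, with changes set only in genes with many reads and without paired counts. That test does not cover calls on few reads.

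The members and gene lists were chosen with earlier results of these data known. Named were all members and, per list, up to 4 called genes with the smallest adjusted p, with FLT4, VEGFD, CALCRL, RAMP2, RAMP3, EPAS1, HIF1A, VHL and LPL in any case. ACKR3, SH2D2A, ADAMTS3, NCK1, SEMA3F, APLN, ANG, DLL4, TIMP3, ADAMTS1, COL4A3, TEK, ANGPT4, the markers PAX8, VIM, CA9, CDH5, EMCN, PECAM1 and ROBO4, and genes overlapping list genes were named after their values were seen.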

Additional observations from a re-analysis of the deposited data

How the results depend on the processing

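Under the 10 alternatives that kept all libraries, each of the 3 calls on members was kept, with a log2 fold change of 0.12 to 0.16 for VEGFA, -0.15 to -0.12 for NRP1 and 0.20 to 0.24 for NRP2. With a replicate block the log2 fold changes were 0.14 for VEGFA (adjusted p = 0.0188), -0.14 for NRP1 (0.0272) and 0.21 for NRP2 (0.00118), and 2504 genes were lower and 2278 higher. Libraries of the same number correlated at -0.00898, -0.0818 and -0.0303 in their deviations, so no pairing by number was seen. With 3 libraries per group, such values cannot exclude a pairing. KDR was removed by the filter of at least 10 counts in every library and when counts were halved. With 1 library left out at a time, the count of members called lower was 0 to 1, and the 0 came without siNFE2L3 replicate 2, where NRP1 and VEGFB were at an unadjusted p under 0.05 in edgeR. DESeq2, limma-voom and the exact test each called 1 member lower on all libraries. The count of list genes called higher was 6 to 10. Directions that turned were of members not called: PGF at -0.0045 without siNFE2L3 replicate 3 and -0.036 without siControl replicate 3 (range -0.036 to 0.11), KDR at 0.09 without siNFE2L3 replicate 3 and 0.46 without siControl replicate 1 (range -0.51 to 0.46), and ADM at -0.013 without siControl replicate 1 (range -0.013 to 0.057). The cause was not tested. Depth limits FLT1 and KDR, which had at most 20 reads per library.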
